A study of Mus musculus with 6 samples.

Results

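The 43 genes described here encode enzymes that use alpha-ketoglutarate (2-oxoglutarate), iron and oxygen to oxidise a substrate: TET enzymes, JmjC proteins, the ALKBH family with Fto, HIF hydroxylases, collagen hydroxylases, OGFOD proteins and Phyh. They were chosen by gene symbol as an enzyme family, with earlier results of these data known, and all 43 were found among the 18493 genes of the deposited table. Regulatory T (Treg) cells, the CD4 T cells that depend on Foxp3 and restrain immune responses, came from spleen and lymph node, sorted for CD4, CD25 and YFP, of untreated female C57BL/6 mice aged 7 weeks. Every mouse was Foxp3cre/+, with Cre expressed from the Foxp3 locus on 1 X chromosome, and the conditional knockout (cKO) mice carried TKTfl/fl in addition, which removes the pentose phosphate enzyme transketolase from Cre-expressing cells. Such females are mosaics, so unmarked Treg cells without Cre remain in both groups and the YFP+ gate selects the cells that use the Cre-bearing X chromosome. There were 3 wild-type libraries (WT1, WT2 and WT3) and 3 cKO libraries (cKO1, cKO2 and cKO3). The sources used here do not say whether a library pools animals, so a p-value reflects only how much these 6 libraries vary.

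In their shared reaction, alpha-ketoglutarate is split to succinate and carbon dioxide while the substrate is hydroxylated, which leads to loss of a methyl group when that group is the site of attack. Through it, TET enzymes oxidise 5-methylcytosine, JmjC demethylases act on methyl-lysine of histones, ALKBH enzymes act on methylated bases and proteins, and HIF hydroxylases mark hypoxia-inducible factor for degradation or keep it from its coactivators. In Treg cells the TET enzymes are known for keeping regulatory DNA of Foxp3 unmethylated. The measurements below are of messenger RNA and carry no information on enzyme activity or on the supply of alpha-ketoglutarate.

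The libraries held 17180577 to 18215168 estimated reads, a range that leaves depth nearly equal between groups. Tkt, the targeted gene, stood at 126, 97.1 and 121 counts scaled to library size (CPM) in WT1 to WT3 and at 52.5, 44.8 and 31.9 CPM in cKO1 to cKO3, without overlap (adjusted p = 0.0516 by edgeR, where 0.05 was needed). Foxp3 stood between 458 and 686 CPM in all 6 libraries. Summed over 7 Treg markers, Foxp3 among them, levels were 4452, 4744 and 4326 CPM in WT1 to WT3. They were lower in every cKO library, at 4192, 3989 and 3895 CPM in cKO1 to cKO3. Log2 fold changes of these 7 genes ran from -0.57 to 0.06, and 0 were called by edgeR. On the first principal component, WT2 and cKO1 had the highest scores (25.4 and 33.2, against -25.9 to 8.11 in the others), which carried 36.1% of the variance. The same pair had the highest Tnfaip3, a feedback inhibitor of NF-kappaB (4898 and 4612 CPM, against 1152 to 2332), and the lowest Hspa1a, a heat shock chaperone (12.7 and 5.35 CPM, against 26.4 to 162.8). Summed markers of myeloid cells spanned 29.9 to 57.5 CPM in WT libraries against 35.9 to 87.9 in cKO, and those of B cells 20.2 to 22.1 against 13.5 to 33.6 CPM. Plasma cell markers were highest in WT2 and cKO1 (163.5 and 130.7 CPM, against 90.1 to 98.7 in the other 4), and erythroid markers reached 132 CPM in cKO1, against 0.277 to 4.07 in the other 5. In such bulk libraries, fewer cells of a type and less RNA per cell cannot be told apart.

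No dioxygenase passed the test between cKO and WT Treg cells. Of the 42 members with enough reads to test, 0 passed an adjusted p under 0.05 in edgeR's quasi-likelihood fit, against 27 of 12887 genes (0.21%) over all genes tested. DESeq2 and limma-voom also called 0 members, and they called 1.29% and 0.147% of all genes. The lowest adjusted p among them was 0.614, shared by Kdm3b and Egln3. Those 2 members (4.76%) had an unadjusted p under 0.05, against 7.69% of all genes. CPM values of the groups did not overlap for 4 members (9.52%), against 14.2% of all genes: Kdm3b and Kdm4b lay higher in every cKO library, and Kdm5a and Egln3 lower. These shares rest on counts of 0, 2 and 4 members, and whether they differ from those of all genes was not tested. Only P4ha2, a subunit of collagen prolyl 4-hydroxylase, had too few reads for the test, with 1, 2 and 1 estimated reads in WT1 to WT3 and 4, 3 and 4 in cKO1 to cKO3.

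The differences were small and fairly well bounded. The median log2 fold change of cKO over WT was 0.04 over the 42 members and 0.004 over all genes, and the members ran from -0.46 (Egln3) to 0.24 (Kdm3b). Of the members, 28 (66.7%) had a fitted value above 0, against 51.4% of all genes. Differences smaller than 0.25 on the log2 scale were found for 41 of 42 members (97.6%), Egln3 being the exception, and for 78.2% of all genes. The 95% interval of the difference lay within 1.5-fold in either direction for 34 members (80.95%; 64.2% of all genes), and within 2-fold for 41 members (97.6%; 82.2% of all genes), the exception being Kdm6b. Intervals reaching past 1.5-fold belonged to Kdm6b, Fto, Egln3, Hif1an, Jmjd1c, Kdm8, Ogfod2 and Ogfod3, so for these 8 a difference of more than 1.5-fold lies within the interval. Within a group, the median member had an SD of 0.14 on the log2 scale (0.16 over all genes). Members and all genes were not matched for level, so the shares above cannot show that the family differed less than other genes.

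**Figure D1:**
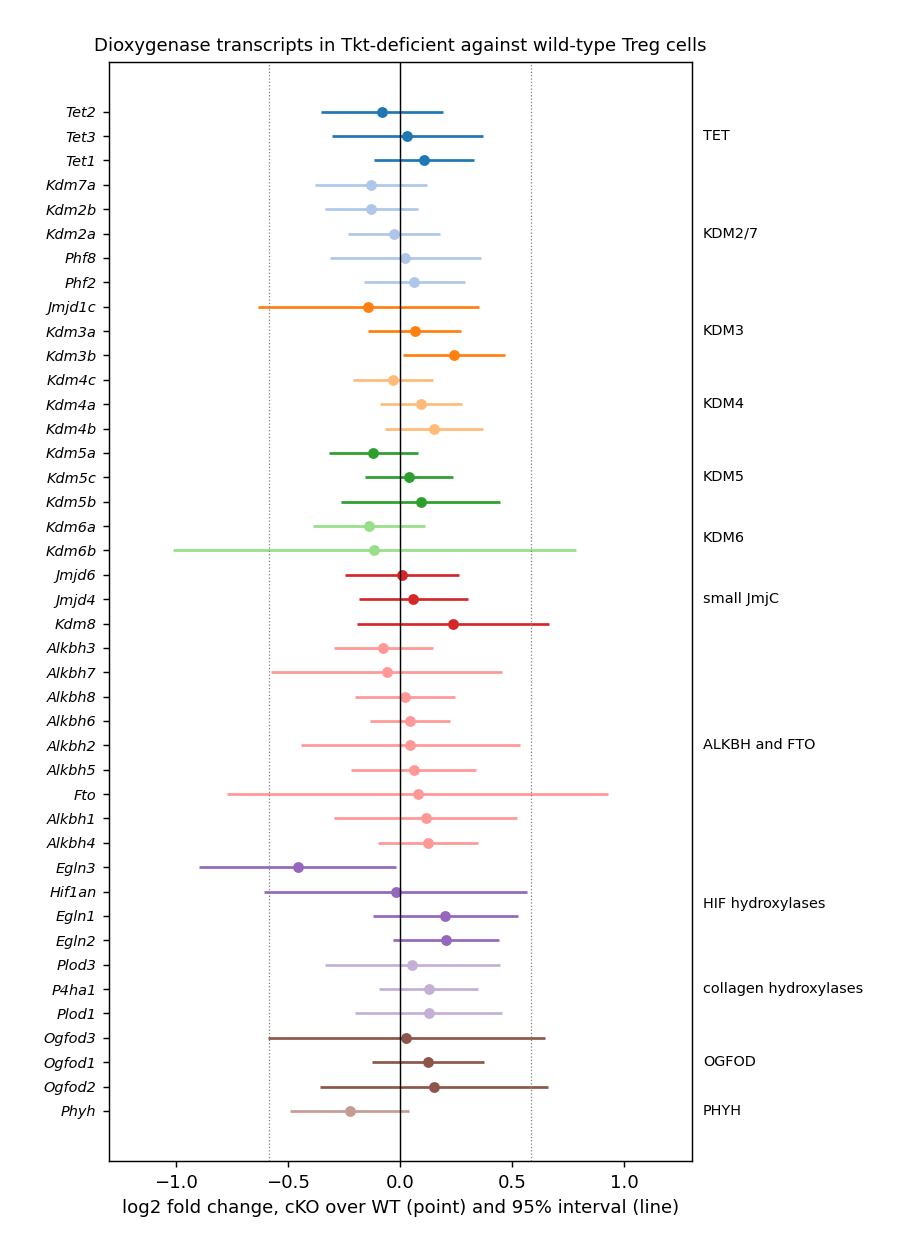
Fitted log2 fold change of cKO over WT (horizontal axis) for the 42 tested dioxygenases, grouped by role, with points for the estimate, lines for the 95% interval and dotted lines at 1.5-fold. All intervals but those of Kdm3b and Egln3 include 0, and no gene passed an adjusted p of 0.05.

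Levels per length, in FPKM (fragments scaled to transcript length and depth), spanned from nearly absent to abundant transcripts. Fto led with 104 ± 58.9 FPKM in WT and 109 ± 43.8 FPKM in cKO (mean ± SD, n = 3). Next came Kdm6b at 68.7 ± 31.2 and 63.5 ± 26.7 FPKM and Kdm5c at 47.6 ± 1.91 and 46.4 ± 2.68 FPKM, followed by Alkbh6, Kdm3b and Kdm2a. In FPKM, Fto was above Kdm6b and Kdm5c in each of the 6 libraries. Kdm6b and Kdm5c did not differ beyond their spread, since Kdm5c was the higher of them in cKO3. The lead of Fto depends on the scaling by length. In CPM its means were 175 in WT and 184.5 in cKO, below Kdm6b (486 and 448.5) and Kdm5c (246 and 253). At the low end, Egln3, Kdm8, Tet1 and Ogfod3 had mean levels between 1.43 and 3.42 FPKM over the 6 libraries, and P4ha2 stood at 0.072 FPKM. Of these 5, Egln3 and Tet1 are described below.

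**Figure D2:**
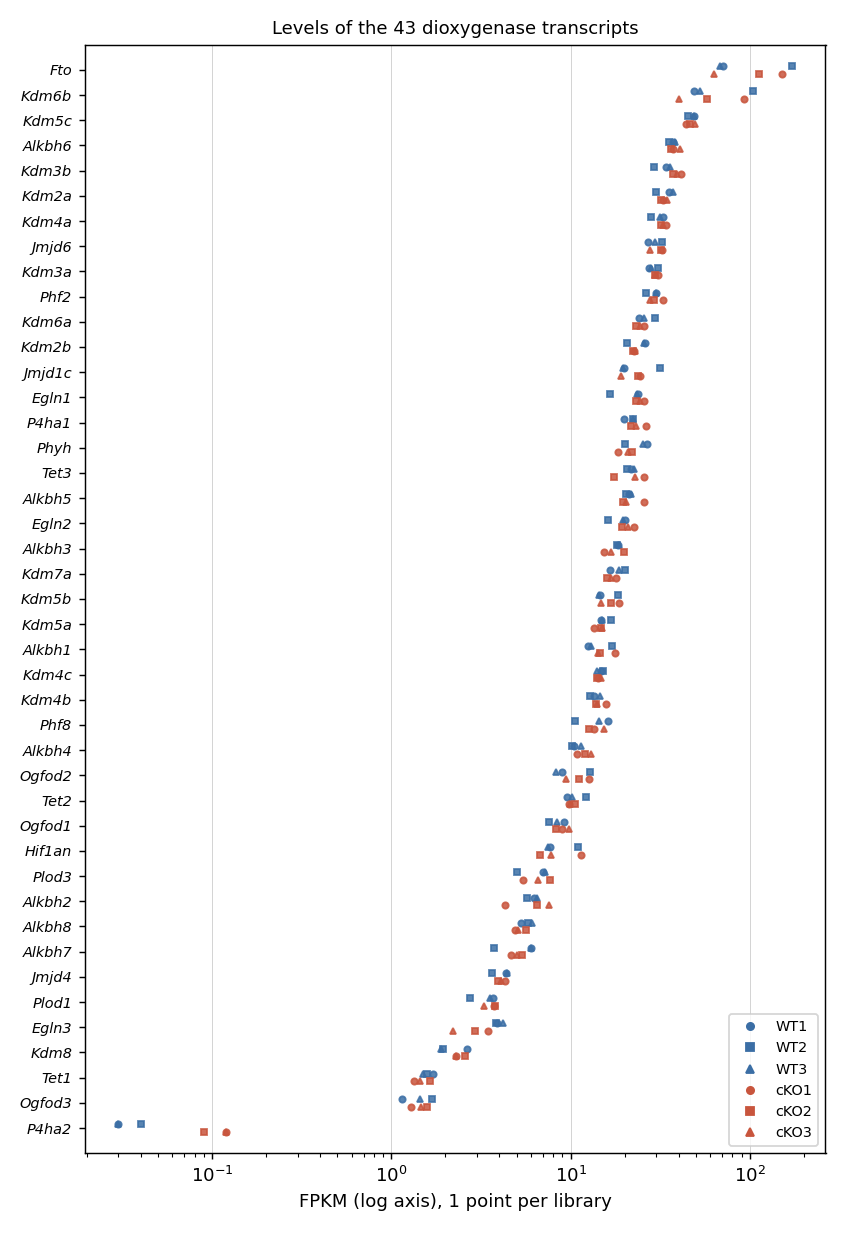
FPKM per library (horizontal log axis) of the 43 dioxygenase genes, ordered by mean level, with blue symbols for WT and red for cKO libraries. Groups lie over each other for most genes, and in Fto and Kdm6b WT2 and cKO1 stand to the right of the other 4 libraries.

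The 3 TET genes, whose products oxidise 5-methylcytosine as the first step of DNA demethylation, stood at similar levels in both groups. Tet3, the most abundant of them per length, measured 242.1, 239.7 and 254 CPM in WT1 to WT3 and 298, 197 and 257 CPM in cKO1 to cKO3. Tet2 measured 95.2, 128 and 103 CPM in WT, against 103, 107 and 98.5 CPM in cKO. Tet1 measured 18.5, 19.8 and 16.7 CPM in WT, against 19.0, 20.4 and 19.7 CPM in cKO. Groups overlapped in all 3 genes, and the highest and the lowest Tet3 value were both cKO libraries. The log2 fold changes were 0.03 ± 0.14 (SE) for Tet3, -0.08 ± 0.12 for Tet2 and 0.10 ± 0.10 for Tet1, with adjusted p of 0.992, 0.957 and 0.908 by edgeR. Summed over the 3 genes, the level was 33.9 ± 0.80 FPKM in WT and 33.5 ± 3.53 FPKM in cKO (SD, n = 3).

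Among the KDM2 and KDM7 proteins, which join a JmjC domain to a DNA-binding CXXC or a histone-reading PHD finger, 2 of 5 genes had values above 0 and none passed. Kdm2a, the most abundant, stood at 226, 204 and 242 CPM in WT and at 225, 208 and 226 CPM in cKO, all within the WT range. Kdm2b, known for bringing a variant Polycomb complex to CpG islands, stood at 123, 104 and 123 CPM in WT and at 111, 104.3 and 104.1 CPM in cKO. WT2 was the lowest Kdm2b library and the other WT libraries were the highest. Its log2 fold change was -0.13 ± 0.09 (SE; adjusted p = 0.840 by edgeR). Without WT2 and cKO1 it was -0.24, with an adjusted p of 0.19, the lowest that any dioxygenase reached in the alternatives tried. Kdm7a, Phf2 and Phf8 lay between -0.13 and 0.06.

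The KDM3 enzymes, which remove methyl groups from lysine 9 of histone H3, held the member with the highest fitted difference. Kdm3b stood at 244, 215 and 259 CPM in WT and at 304.5, 264 and 280.0 CPM in cKO. Every cKO library lay above every WT library, although WT3 and cKO2 were less than 5 CPM apart. The log2 fold change was 0.24 ± 0.10 (SE; 95% interval 0.01 to 0.47), with an unadjusted p of 0.0418 and an adjusted p of 0.614 by edgeR. Without WT2 and cKO1 it was 0.11. Exons of an antisense long noncoding gene, Gm26538, cover 24.6% of the exonic bases of Kdm3b, and the sources used here do not say whether counting used strand, so reads of the 2 genes may be mixed. Kdm3a and Jmjd1c of the same family had log2 fold changes of 0.06 and -0.14.

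KDM4 enzymes, which also act on lysine 9 and on lysine 36 of histone H3, gave 3 small values. Kdm4b measured 68.5, 72.2 and 74.28 CPM in WT, against 89.6, 74.6 and 74.30 CPM in cKO. Its groups were separated by the last decimals only, between WT3 and cKO3, and cKO1 stood alone above the rest (log2 fold change 0.15 ± 0.09 SE, adjusted p = 0.824 by edgeR). Without cKO1 the value was 0.055. Kdm4a, the most abundant of them, measured 142, 127 and 139 CPM in WT, against 153, 139.3 and 142 CPM in cKO, and Kdm4c had a log2 fold change of -0.03.

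KDM5 enzymes remove methyl groups from lysine 4 of histone H3, a mark of promoters. Kdm5a stood at 134.3, 158 and 137 CPM in WT and at 127, 134.1 and 133.6 CPM in cKO. All cKO libraries were below all WT libraries, but WT1 and cKO2 were nearly equal and WT2 was high alone (log2 fold change -0.12 ± 0.08 SE, adjusted p = 0.848 by edgeR). Without WT2 and cKO1 the value was -0.02. Kdm5c, an X-linked gene, stood at 254, 225 and 259.5 CPM in WT and at 249, 244 and 266 CPM in cKO, with overlapping groups and a log2 fold change of 0.04 ± 0.08 (SE). Kdm5b had a value of 0.09.

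KDM6 enzymes remove the Polycomb mark on lysine 27 of histone H3, and they differed sharply in spread. Kdm6a, X-linked, stood at 151, 189 and 162 CPM in WT and at 163, 140.5 and 152 CPM in cKO (fitted log2 difference -0.14 ± 0.11 SE, adjusted p = 0.868 by edgeR). Kdm6b, an inducible gene of activated lymphocytes and macrophages, stood at 344, 743 and 371 CPM in WT and at 658, 404.5 and 283 CPM in cKO. The high libraries were WT2 and cKO1, 1 of each genotype, and the other 4 ran from 283 to 404.5 CPM. The highest library was 2.63 times the lowest, and the fitted difference of -0.12 ± 0.38 (SE) had a 95% interval from -1.01 to 0.78. Leaving out WT2 alone gave 0.33 and leaving out cKO1 alone gave -0.50, of opposite sign. Kdm5d and Uty, the Y-linked relatives of Kdm5c and Kdm6a, were listed with 77.7 to 129.6 and 142.9 to 208.1 estimated reads in these female libraries. Eif2s3y, also Y-linked, had reads too, while Ddx3y, another Y-linked gene, had 0 to 4. Whether reads of Kdm5c and Kdm6a were divided with near-identical sequence was not tested, and their levels are uncertain to that extent.

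Small JmjC proteins hydroxylate other substrates than histones. Jmjd6, a lysyl hydroxylase of splicing factors, stood at 54.35, 67.3 and 58.0 CPM in WT and at 64.8, 61.4 and 54.31 CPM in cKO. These groups covered the same range, and the log2 fold change was 0.007 ± 0.11 (SE; 95% interval -0.25 to 0.26). Kdm8, with a mean of 6.59 CPM in WT and 7.76 in cKO, had a wider interval of -0.19 to 0.66 around 0.23, and Jmjd4, which hydroxylates a translation termination factor, had a value of 0.06.

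The ALKBH enzymes and Fto act on methylated DNA, RNA or protein, and 7 of 9 had values above 0, from -0.08 to 0.12 over the group. Fto, an RNA demethylase acting on N6-methyladenosine and related marks, stood at 129.7, 269 and 126 CPM in WT and at 248, 188 and 118 CPM in cKO. WT2 and cKO1 were again the highest, cKO2 was intermediate, and the remaining WT and cKO libraries were close together. The log2 fold change was 0.08 ± 0.36 (SE; 95% interval -0.77 to 0.93; adjusted p = 0.992 by edgeR). Alkbh5, the other eraser of N6-methyladenosine, stood at 121, 122.5 and 125 CPM in WT and at 153, 114 and 117.5 CPM in cKO. Its 2 lowest libraries and its highest were all cKO, and its log2 fold change was 0.06 ± 0.12 (SE). Alkbh8, which modifies the wobble base of certain tRNAs, had a value of 0.02, and Alkbh1, Alkbh3 and Alkbh4 had 0.11, -0.08 and 0.12. Alkbh2, a DNA repair enzyme, shares 29.5% of its exonic bases with the antisense gene Usp30, and Alkbh6 shares 11.9% with Gm24757, so both levels are uncertain.

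**Figure D3:**
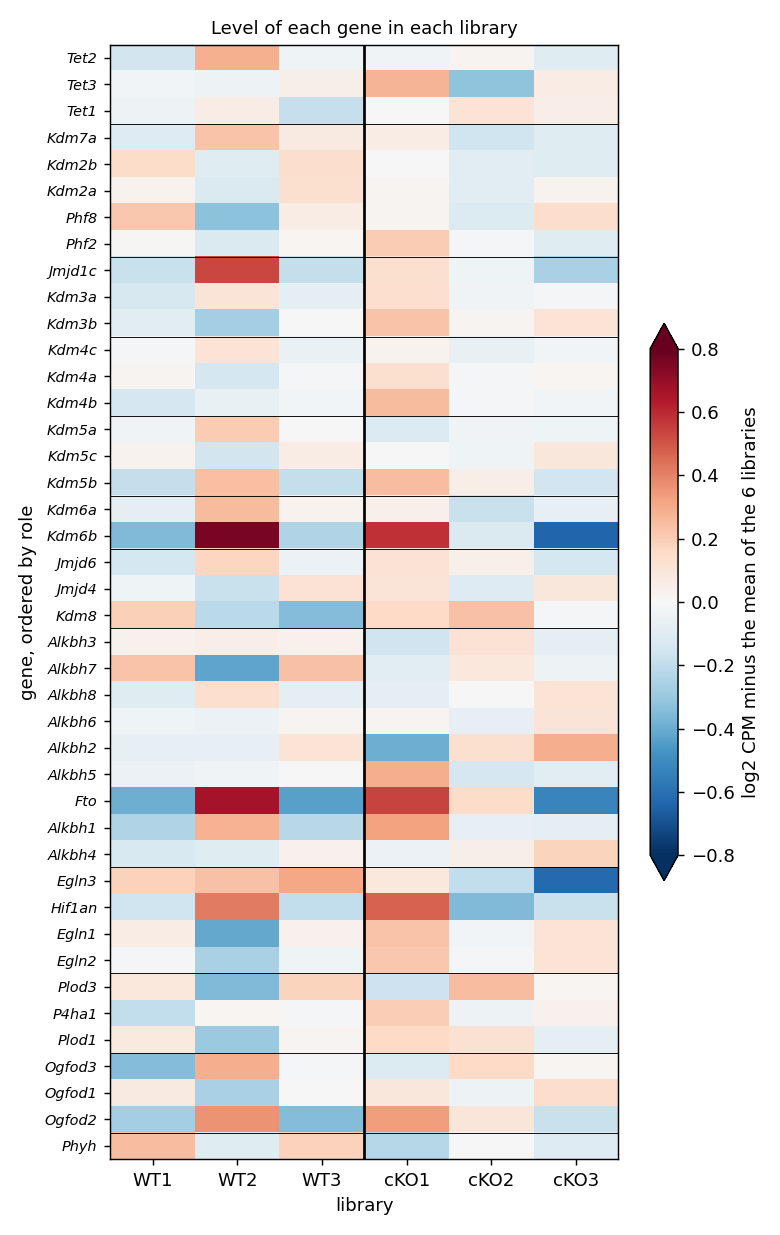
Log2 CPM of each tested dioxygenase in each library minus its mean over the 6 libraries, with genes in order of role and a vertical line between WT and cKO. Fto, Kdm6b, Jmjd1c and Hif1an are red in both WT2 and cKO1, across the line of genotype.

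In rank order, though smaller in size, the pattern of Fto and Kdm6b was also seen in some other dioxygenases and in part of all genes. Whether the shares below differ from those of all genes was not tested. WT2 and cKO1 were the 2 highest libraries for 11 of 42 members (26.2%), against 15.5% of all genes, and the 2 lowest for 2 members (4.76%; Alkbh7 and Plod3), against 14.1%. The 11 were Kdm3a, Jmjd1c, Kdm4c, Kdm5b, Kdm6a, Kdm6b, Jmjd6, Alkbh1, Fto, Hif1an and Ogfod2. In CPM, the highest library was 2.63 times the lowest for Kdm6b and 2.29 times for Fto. For the rest of the 11 this ratio ran from 1.12 (Kdm4c) to 1.77 (Hif1an). Tnfaip3, Hspa1a and the plasma cell markers, given above, moved with the same 2 libraries, and their part in these levels was not tested. Without these 2 libraries, the members' median log2 fold change was 0.003, Fto stood at 0.26, Kdm6b at -0.06 and Hif1an at -0.08, and 0 members were called, against 0.55% of all genes. In that fit 3 members (7.14%) had an unadjusted p under 0.05, against 11.4% of all genes.

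The HIF hydroxylases held the member with the lowest fitted value. Egln1, Egln2 and Egln3 encode the prolyl hydroxylases (PHD enzymes) that mark HIF-alpha for binding by the Vhl ubiquitin ligase, and Hif1an encodes the asparaginyl hydroxylase that blocks its coactivator. Egln1 and Egln3 are well-known HIF targets themselves. Promoter windows of the 3 prolyl hydroxylase genes are shown because the fitted value of Egln3 had the opposite sign to the other 2. The sequences are from RefSeq, build GRCm38.p6, 250 bases before to 50 after an annotated start, 5′ to 3′ on the gene's strand (minus for all 3), and capitals mark ACGTG or GCGTG or their reverse complements, CACGT and CACGC, the core letters of HIF-type elements. ACGTG also occurs within the E-box CACGTG.
Egln1, chr8:124949205-124949504: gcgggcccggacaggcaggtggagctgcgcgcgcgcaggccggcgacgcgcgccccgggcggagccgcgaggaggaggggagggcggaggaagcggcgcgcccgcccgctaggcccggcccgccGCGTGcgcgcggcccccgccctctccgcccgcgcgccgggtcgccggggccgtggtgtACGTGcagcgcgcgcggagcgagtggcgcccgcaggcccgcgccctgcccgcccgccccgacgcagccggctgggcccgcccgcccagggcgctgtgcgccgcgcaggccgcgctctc
Egln2, chr7:27166753-27167052: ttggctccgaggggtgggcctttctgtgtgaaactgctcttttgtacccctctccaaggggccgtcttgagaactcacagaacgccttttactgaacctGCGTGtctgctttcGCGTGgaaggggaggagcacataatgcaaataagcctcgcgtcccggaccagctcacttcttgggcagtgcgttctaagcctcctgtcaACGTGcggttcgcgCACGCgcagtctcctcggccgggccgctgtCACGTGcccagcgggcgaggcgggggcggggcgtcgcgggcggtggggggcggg
Egln3, chr12:54203825-54204124: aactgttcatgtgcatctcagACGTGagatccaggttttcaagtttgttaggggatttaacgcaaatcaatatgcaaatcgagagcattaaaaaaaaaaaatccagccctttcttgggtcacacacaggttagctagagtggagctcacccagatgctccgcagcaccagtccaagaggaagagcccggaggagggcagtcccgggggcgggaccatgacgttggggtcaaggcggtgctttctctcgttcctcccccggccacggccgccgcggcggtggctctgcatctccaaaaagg
Counted on both strands, so that CACGTG counts as 2, these windows held 2 matches for Egln1, 6 for Egln2 and 1 for Egln3. A second Egln2 start, chr7:27165679-27165978, whose window is not printed, had 1 match. Promoter windows were found for 37 of the 43 members (47 windows), and 29 of these windows (61.7%) held such a match, against 43.8% of all 32851 mouse windows of the same length. Member windows also had more guanine and cytosine, with a median of 61.0% against 52.7%, and 80.85% had an observed-to-expected CpG ratio over 0.6, against 35.8%. A motif with a CpG is met more often in such sequence, and a match is a description of letters only.

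Egln3 stood at 10.2, 10.6 and 11.2 CPM in WT and at 9.54, 7.85 and 5.85 CPM in cKO. Each cKO library was below each WT library, and the spread was wider in cKO. The log2 fold change was -0.46 ± 0.19 (SE; 95% interval -0.90 to -0.02), a ratio of 0.727, with an unadjusted p of 0.0423 and an adjusted p of 0.614 by edgeR, so the difference did not pass. It rests on 105 to 198 estimated reads per library. In the 19 alternatives the value ran from -0.64 to -0.29, with adjusted p of 0.301 to 0.955. As the groups do not overlap, leaving out libraries could not change its sign, so the constant sign is no further support.

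Egln1 and Egln2 lay on the other side of 0. Egln1, the main oxygen-sensing isoform in most tissues, stood at 75.3, 54.4 and 74.2 CPM in WT and at 84.9, 71.5 and 78.1 CPM in cKO, with a low WT2 and overlap between the groups. Egln2 stood at 38.4, 32.35 and 37.9 CPM in WT and at 45.1, 38.3 and 41.8 CPM in cKO, where only cKO2 lay within the WT range. The log2 fold changes were 0.20 ± 0.14 (SE; adjusted p = 0.841 by edgeR) and 0.20 ± 0.10 (SE; adjusted p = 0.735). Without WT2 and cKO1 they were 0.001 and 0.07, and Egln3 was at -0.64. For all 3 genes cKO1 was the highest cKO library, and for Egln1 and Egln2 WT2 was the lowest WT library. Lower values in that fit thus follow from the libraries left out, and set no gene apart. As a share of the summed FPKM of the 3 genes, Egln3 made up 8.11%, 10.4% and 8.90% in WT and 6.70%, 6.49% and 4.67% in cKO, a measure chosen after the values were seen and given without a test. Hif1an stood at 49.1, 73.1 and 47.9 CPM in WT and at 76.2, 42.96 and 48.5 CPM in cKO, high in WT2 and cKO1 (log2 fold change -0.02 ± 0.25 SE). Summed, the 4 hydroxylases reached 52.6 ± 4.12 FPKM in WT and 56.75 ± 5.56 FPKM in cKO (SD, n = 3).

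Collagen prolyl and lysyl hydroxylases, which modify procollagen in the endoplasmic reticulum, had 3 testable genes with values of 0.05 to 0.13. P4ha1, the catalytic subunit of the main prolyl 4-hydroxylase and a HIF target, stood at 66.3, 76.95 and 75.5 CPM in WT and at 87.2, 73.7 and 77.75 CPM in cKO. Its groups overlapped, and cKO1 was the highest library (log2 fold change 0.13 ± 0.09 SE, adjusted p = 0.871 by edgeR). Plod1 and Plod3 had values of 0.13 and 0.05; exons of Znhit1 and a microRNA gene cover 11.9% of those of Plod3. Among the OGFOD proteins, of which Ogfod1 hydroxylates a ribosomal protein, all 3 values were above 0 and none passed. Ogfod2 stood at 14.5, 22.4 and 13.7 CPM in WT and at 22.0, 18.7 and 15.4 CPM in cKO, with WT2 and cKO1 highest (0.15 ± 0.22 SE). Its value was 0.41 without WT2 and 0.018 without cKO1. Ogfod3, with 1.79 CPM in cKO and 1.76 in WT, shares 17.05% of its exonic bases with Hexdc. Phyh, the peroxisomal enzyme that starts the breakdown of phytanic acid, stood at 38.15, 30.1 and 36.55 CPM in WT and at 27.5, 32.1 and 30.0 CPM in cKO. WT2 lay among the cKO libraries, and the log2 fold change was -0.23 ± 0.11 (SE; adjusted p = 0.736 by edgeR).

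Because the table gives both estimated reads and FPKM, an average transcript length could be derived for each gene and library as the length that reconciles the 2 values. For the median member this implied length varied 1.04-fold between the lowest and the highest library, against 1.02-fold over 10183 genes with FPKM above 1 in every library. It varied more than 1.2-fold for 3 members (7.14%: Fto, Tet1 and Alkbh8), against 4.72% of all genes. For Fto it was 1859, 1527 and 1868 bases in WT and 1595, 1687 and 1892 bases in cKO, shortest in WT2 and cKO1, the libraries in which its CPM was highest. Annotated coding transcripts of Fto run from 762 to 4707 bases. For Kdm6b, which was also high in those libraries, the implied length stayed between 6909 and 7191 bases. The annotated coding transcript of Kdm6b has 6654 bases, below all of these values, and its exons together cover 6954. An implied length is therefore not a measured transcript length.

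Tet1 was the member whose implied length differed most between the groups. It was 10980, 12110 and 11190 bases in WT and 13760, 12490 and 13830 bases in cKO, without overlap, among annotated coding transcripts of 361 to 14369 bases. The log2 difference was 0.23 ± 0.06 (SE), with an unadjusted p of 0.0151 and an adjusted p of 0.9998 in limma, so it did not pass. In that test, added after the values had been seen, 0 of 10183 genes were called (0%), and 4.08% of all genes against 4 of 42 members (9.52%: Tet1, Kdm5a, Alkbh4 and Jmjd6) had an unadjusted p under 0.05. Groups did not overlap in 6 members (14.3%), against 7.31% of all genes. The differences of Kdm5a, Alkbh4 and Jmjd6 were at most 0.05 in size on the log2 scale. With the longer implied length, Tet1 had a lower mean in cKO on the FPKM scale, with overlapping groups, at 1.71, 1.59 and 1.51 FPKM in WT and 1.34, 1.65 and 1.45 FPKM in cKO, while its mean in CPM was slightly higher.

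**Figure D4:**
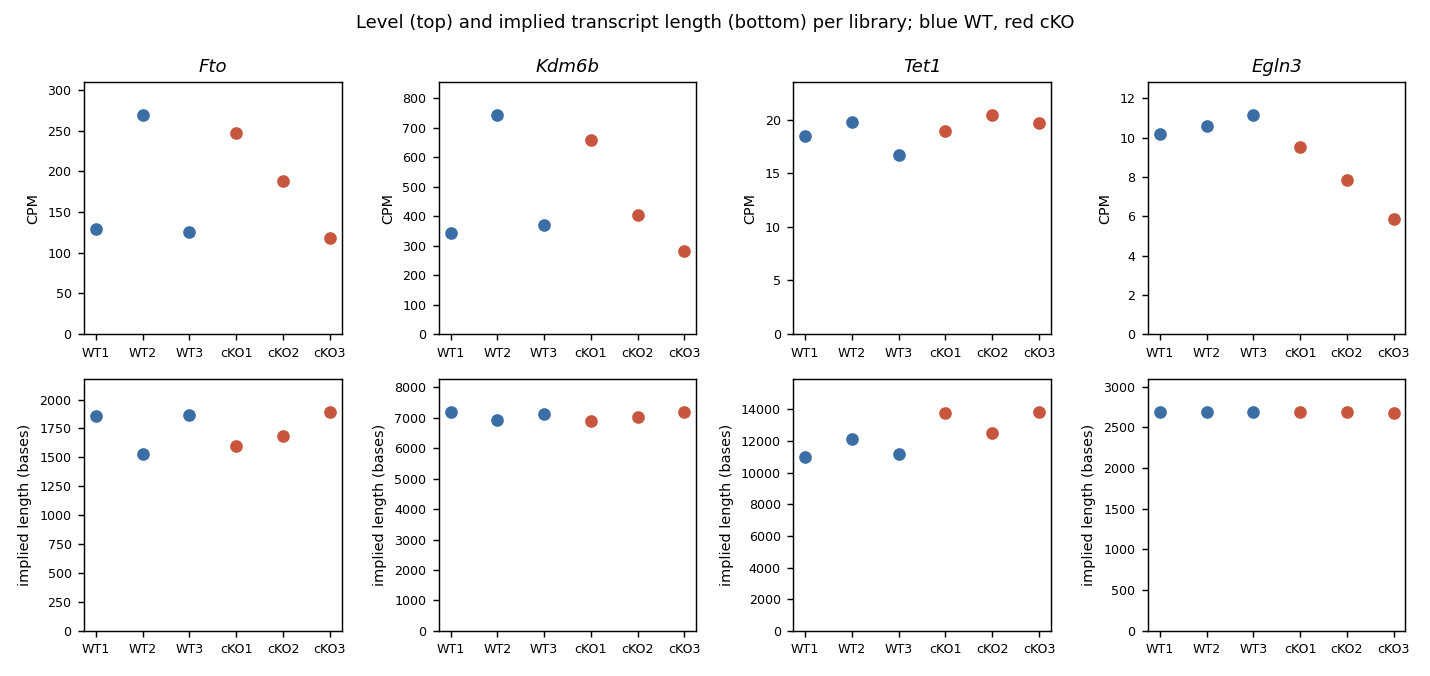
CPM (top) and implied transcript length in bases (bottom) of Fto, Kdm6b, Tet1 and Egln3 in each library, with WT in blue and cKO in red. Fto lengths are lowest where its CPM is highest, Tet1 lengths are higher in all 3 cKO libraries, and Egln3 lengths are flat while its CPM is lower in cKO.

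Genes linked to the dioxygenases were examined as 8 lists, and 0 genes of any list were called by edgeR, against 0.21% of all genes. An unadjusted p under 0.05, counted below for each list, was met by 7.69% of all genes. Among further dioxygenases outside the 43 (17 tested, median log2 fold change 0.06, 1 with an unadjusted p under 0.05), the lowest p belonged to Kdm4d, at 0.89, 0.78 and 1.24 CPM in WT, against 0.41, 0.49 and 0.61 CPM in cKO (adjusted p = 0.567), followed by Riox1 (0.25, adjusted p = 0.712). Genes that make or use alpha-ketoglutarate (30 tested, median 0.003, 0 with an unadjusted p under 0.05) included Bcat2, a branched-chain aminotransferase (0.22, adjusted p = 0.656), and Got1, an aspartate aminotransferase (-0.52, adjusted p = 0.719; -0.20 without WT2). Partners of DNA demethylation (16 tested, median -0.01, 0 with an unadjusted p under 0.05) and of RNA and tRNA methylation (17 tested, median 0.04, 1 with an unadjusted p under 0.05) held Cxxc5 (0.31), Neil2 (-0.34), Rbm15b (0.29) and Trmt112 (0.22), none of them called.

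Among the substrates and partners of the HIF hydroxylases, Arnt2 had the largest single value, beyond that of any hydroxylase. Arnt2, a HIF-beta subunit best known from neurons, stood at 4.16, 4.96 and 6.42 CPM in WT and at 1.98, 1.64 and 1.11 CPM in cKO, without overlap (log2 fold change -1.71 ± 0.29 SE, adjusted p = 0.0882 by edgeR, 0.000472 by DESeq2). Hif1a, the oxygen-regulated subunit, stood at 342, 436 and 339 CPM in WT and at 323, 276 and 284 CPM in cKO (-0.34 ± 0.12 SE, adjusted p = 0.527). Neither passed in edgeR. The list of 10 HIF subunits and degradation factors had a median of -0.07. Of these 10 genes, 2 had an unadjusted p under 0.05, a higher share than the 7.69% of all genes. HIF target genes (24 tested) had a median of -0.002 and 3 such genes, also above that share. They were led by Pdk1, a kinase that restrains pyruvate dehydrogenase (0.27 ± 0.07 SE, adjusted p = 0.304 by edgeR), and Ndrg1 (0.32, adjusted p = 0.499). Such counts are small, and no list was tested as a set.

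Iron is a cofactor of these enzymes, and ascorbate assists some of them. Log2 fold changes of 11 tested genes of iron and ascorbate supply ran from -0.65 to 2.19, with a median of -0.03. Of these 11 genes 3 had an unadjusted p under 0.05, a small count but a higher share than the 7.69% of all genes. The lowest p belonged to Ncoa4, the receptor that delivers ferritin to lysosomes. Ncoa4 stood at 64.2, 75.5 and 57.4 CPM in WT and at 43.6, 33.75 and 48.6 CPM in cKO, without overlap (log2 fold change -0.65 ± 0.16 SE, adjusted p = 0.25 by edgeR, 0.0154 by DESeq2). Slc11a2, an iron transporter, had a value of -0.32 (adjusted p = 0.354). Partners and substrates of the collagen hydroxylases (11 tested, median 0.96, 0 with an unadjusted p under 0.05) were led by C1qc, a collagen-like complement gene of macrophages, at 0.61, 4.49 and 0.788 CPM in WT and at 5.93, 16.1 and 1.003 CPM in cKO (1.98, adjusted p = 0.776). Its value ran from 0.82 without cKO2 to 3.45 without WT2 and 3.60 without WT2 and cKO1. Next came Col1a2 at 1.55, 6.04 and 1.352 CPM in WT, against 6.80, 3.82 and 6.68 CPM in cKO. Summed markers of stromal and endothelial cells, of which Col1a2 is 1, ran at 3.00, 19.3 and 4.06 CPM in WT and at 20.2, 15.6 and 20.2 CPM in cKO. Those of myeloid cells ran at 29.9, 57.5 and 30.3 CPM in WT and at 61.3, 87.9 and 35.9 CPM in cKO, and the part of both lists in that median was not tested. P4ha1, Plod1 and Plod3 did not share its size.

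**Figure D5:**
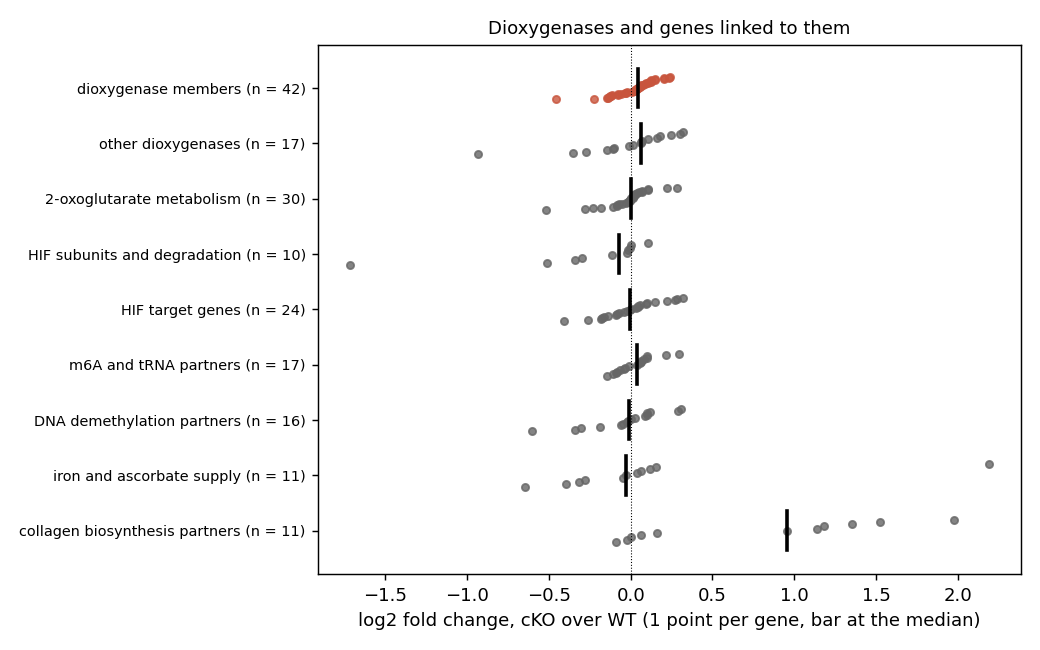
Log2 fold change of cKO over WT for each tested gene of the 42 dioxygenases (red) and of 8 lists of linked genes (grey), with a bar at each median. The dioxygenases lie between -0.46 and 0.24, and the lowest point of the HIF subunits is Arnt2 at -1.71.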

How the data were processed

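RNA of 3 WT and 3 cKO sorted Treg libraries was analysed from 1 table, in which groups and replicate numbers were read from the sample titles. According to the submitters' processing notes, which state no roles, the tools were DESeq2 1.16.1, HISAT2 2.0.5 and featureCounts 1.5.0-p3, with build mm10. The authors deposited estimated counts per gene, not normalized, of which 45.4% to 46.3% per library were not whole to within 0.01. They also deposited FPKM, recognised by their values as scaled by transcript length and sequencing depth. The origin of the fractions and the strand setting of counting are not stated in these sources.

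Counts were rounded, filtered with filterByExpr (minimum count 10) and scaled by TMM, and 12887 genes were tested with edgeR 4.0.16 (quasi-likelihood F test, two-sided, group as the only term) in R 4.3.3. Benjamini-Hochberg adjustment covered all 12887 genes, with a threshold of 0.05. CPM are scaled to the TMM library size, and the SE was derived from the F statistic. The common biological coefficient of variation was 16.7%. An exact permutation test of 3 against 3 cannot give a two-sided p under 0.1. Implied length is estimated reads divided by FPKM and library total, tested on the log2 scale with limma 3.58.1. All 43 Entrez identifiers matched RefSeq, and exon overlap and transcript lengths come from GENCODE annotation of GRCm38.

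Members, by a rule on gene symbols, and linked lists were chosen with earlier results of these data known. Values in every library were given for the 8 members with the lowest p, those without overlap between groups, the most abundant member of each of 12 roles, and the TET, KDM6 and HIF hydroxylase genes with Fto and Alkbh5. Of each linked list, the 2 genes with the lowest p were named. Alternatives were DESeq2 1.42.0, limma-voom, RLE, upper-quartile or no scaling factors, no or a stricter filter (1 CPM in 3 libraries), the replicate block, robust empirical Bayes, the newer quasi-likelihood fit, limma on log2(FPKM + 0.1) and log2(FPKM + 1), each library left out, and WT2 and cKO1 both left out. The script was tested on simulated data.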

Additional observations from a re-analysis of the deposited data

How the results depend on the processing

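In all 19 alternatives 0 dioxygenases were called, and their median log2 fold change ran from -0.0009 without cKO1 to 0.08 without cKO2. The number of all genes called was 27 in the reported fit. It was 173 with DESeq2, 43 with no filter on low counts, 48 with robust empirical Bayes, 0 with limma on log2(FPKM + 0.1) (929 at an unadjusted p under 0.05), 9 on log2(FPKM + 1) and 71 without WT2 and cKO1. Leaving out each library in turn gave 0 to 30 genes called (681 to 1327 at an unadjusted p under 0.05): 30 without WT2 and 0 without any of the other 5. With the replicate block 0 genes were called (811 at an unadjusted p under 0.05), and the members' median was 0.04. The sample titles do not say whether equal numbers mark pairs. Deviations of same-numbered libraries from their group means correlated at -0.28, 0.06 and 0.26, and WT2 correlated best with cKO1 (0.31). Such deviations sum to 0 within each group of 3 libraries, so these correlations cannot decide it. Log2 fold changes of members near 0 changed sign. Kdm5c was at -0.035 on log2(FPKM + 0.1), -0.035 on log2(FPKM + 1) and -0.012 without WT2 and cKO1, and Tet1 at -0.11 and -0.071 on the 2 FPKM scales. Without WT2 and cKO1, Tet3 was at -0.13, Tet2 at 0.052 and Alkbh5 at -0.089. With 1 library left out, ranges were -0.11 to 0.17 for Tet3, -0.16 to 0.053 for Tet2, -0.092 to 0.034 for Kdm2a, -0.024 to 0.079 for Kdm5c, -0.50 to 0.33 for Kdm6b, -0.056 to 0.098 for Jmjd6, -0.19 to 0.53 for Fto, -0.31 to 0.20 for Hif1an and -0.087 to 0.13 for Alkbh5. Without a change of sign, they were 0.055 to 0.20 for Kdm4b, 0.018 to 0.41 for Ogfod2, 0.063 to 0.28 for Egln1, -0.21 to -0.045 for Kdm6a, -0.16 to -0.044 for Kdm5a and 0.055 to 0.17 for P4ha1. Apart from Tet1, the reported values of the genes that changed sign are smaller than their SE, and the FPKM scales differ from counts by the implied lengths; other causes were not tested. The fewest reads lay behind P4ha2, Ogfod3, Alkbh7 and Alkbh2, and 3 libraries a group limit Fto and Kdm6b.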
